A study of Homo sapiens with 9 samples.

Results

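The histone and DNA modifying enzyme families were taken from a gene count table of HCT8 cells exposed to bacterial membrane vesicles. Members were the rows whose names belong to the lysine demethylases (KDM), lysine methyltransferases (KMT, SETD, SUV39H, SUV420H, EHMT, EZH), lysine acetyltransferases (KAT), histone deacetylases and sirtuins (HDAC, SIRT), protein arginine methyltransferases (PRMT) and the DNA methyltransferases and TET enzymes, without pseudogenes and antisense genes. The choice used names and no measured value, but it was made with earlier results of these data known. It gave 84 names in 90 rows, of 24529 names in 26008 rows, because EHMT2 had 7 rows, 6 of them at 0 in every library. HCT8 is a line from a human ileocecal colorectal adenocarcinoma, so the results describe 1 cell line. Cells seeded 16 h earlier were given fresh medium and then 1 of 3 additions for 5 h. These were vesicles shed by Vibrio cholerae strain C6706, vesicles shed by Escherichia coli strain MC1061, or 20 mM Tris-HCl as the control, which the labels also call untreated. Each group had 3 libraries with replicate numbers 1 to 3. Nothing in the labels says that the 3 were separate cultures, and the spread that every p-value measures may be technical. The series title names gene transcription and epigenetics as its subject, and the enzymes that write and remove these marks are compared here between the 3 groups.

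Histone tails carry acetyl and methyl groups that acetyltransferases and methyltransferases add and that deacetylases and demethylases take off. DNA methyltransferases place methyl groups on cytosine, and TET enzymes oxidise them as a step towards their removal. In intestinal epithelium these enzymes take part in keeping stem cell and differentiation programs apart, and several are altered in colorectal cancer. Most act inside larger complexes, such as the Polycomb repressive complex for EZH2 and the COMPASS complexes for the KMT2 and SETD1 enzymes.

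A row of this table cannot be read as the level of the named gene's own transcript. The libraries were made with a strand-marking kit, but none of the sources used here says which strand was counted. Of the 22823 names that matched the GENCODE 29 annotation, 32.2% had an exon that overlaps an exon of another gene on the other strand, and these names held 85.5% of the counts. Of the 84 enzyme names, 34 had such an overlap (40.5%), and they held 88.4% of the enzymes' counts. Values below are therefore those of rows, each called by its name in the table. Any read from the other strand's gene in a shared exon and any from the named gene cannot be told apart here.

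Sequences from the loci of the KDM4A and SIRT3 rows are shown because the results return to these rows and because both overlap a gene on the other strand. The KDM4A stretch is the last coding exon in GENCODE 29 (GRCh38, chr1:43704230-43704367, plus strand). Its 54 capitals lie in exons of KDM4A-AS1, a gene named as an antisense RNA, whose exons share 464 bases with those of KDM4A, 85 of them coding. The SIRT3 stretch is from RefSeq (GRCh38.p14, chr11:237050-237181, minus strand) and lies upstream of the SIRT3 start. Its 95 capitals are coding bases of PSMD13, a proteasome subunit, read here on the strand opposite to that gene.
KDM4A: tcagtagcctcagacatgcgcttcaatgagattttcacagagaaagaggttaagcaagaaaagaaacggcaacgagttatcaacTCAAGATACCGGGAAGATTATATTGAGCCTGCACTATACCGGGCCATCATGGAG
SIRT3: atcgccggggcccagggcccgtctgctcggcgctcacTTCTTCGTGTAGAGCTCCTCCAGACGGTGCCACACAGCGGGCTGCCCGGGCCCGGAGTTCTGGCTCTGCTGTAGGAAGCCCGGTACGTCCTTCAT

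Library totals ran from 363557 to 733412 counts. The 8 epithelial marker rows all had counts and summed to between 7641 and 11462 per library. The 4 fibroblast markers in the table summed to 0 or 1, with COL1A2, DCN and LUM at 0. The immune markers summed to 21 to 104, with PTPRC and CD3E at 0, and the endothelial markers to 2 to 19, with VWF and CDH5 at 0. E. coli vesicle replicates 1 and 2 stood apart from the other 7 libraries in where reads fell. Rows with an overlap at least 3000 bases from the 3′ end of a protein-coding gene on the other strand were taken as far. In those replicates their counts were 24.1% and 21.9% of those of rows with an overlap under 500 bases from such an end. The other 7 libraries had 30.5% to 31.9%. In bulk RNA, fewer cells with a transcript and less of it per cell cannot be told apart.

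Few of the enzyme rows were well measured. Of the 90 rows, 20 (22.2%) had 10 or more counts in at least 3 of the 9 columns, against 15.6% of all rows. These were SETD6, KAT5, SIRT3, KDM2B, SIRT5, SUV39H2, HDAC1, HDAC7, KDM4A, SETDB1, SETD1A, KMT2E, KAT2B, DNMT1, HDAC5, HDAC2, KDM1A, KMT2D, KDM8 and KDM6B. Of the 20, 13 reached 10 counts in all 9 columns. The edgeR filter on low counts kept 19 of them for testing and left out KDM6B. HDAC9, KDM4D, KDM4E and PRMT8 had no count in any library. An edge of the threshold can be seen in KDM6B, a demethylase of H3K27, which had 10, 10 and 8 counts in the control libraries, 4, 3 and 15 with V. cholerae vesicles and 2, 3 and 6 with E. coli vesicles. Just outside it lay KMT2B with 71 counts over the 9 libraries, KDM4C with 64, KDM1B with 61, TET2 with 55, PRMT6 and EHMT2 with 54 each and EZH2 with 48.

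The enzymes' counts were concentrated in a few rows. Together the 90 rows held 14185 counts, 0.358% of all counts. SETD6 alone held 29.2% of them, SETD6 and KAT5 48.8%, and SETD6, KAT5, SIRT3, KDM2B and SIRT5 72.4%. These shares are of raw counts, with no correction for length. The share of a library's counts that fell in enzyme rows ran from 0.340% to 0.384%. Without those 5 rows it was 0.0928% to 0.115% in the control libraries, 0.0913% to 0.113% with V. cholerae vesicles, and 0.0784%, 0.0829% and 0.106% in E. coli vesicle replicates 1, 2 and 3. The first 2 of these lay below all of the control libraries and the third among them.

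**Figure D1:**
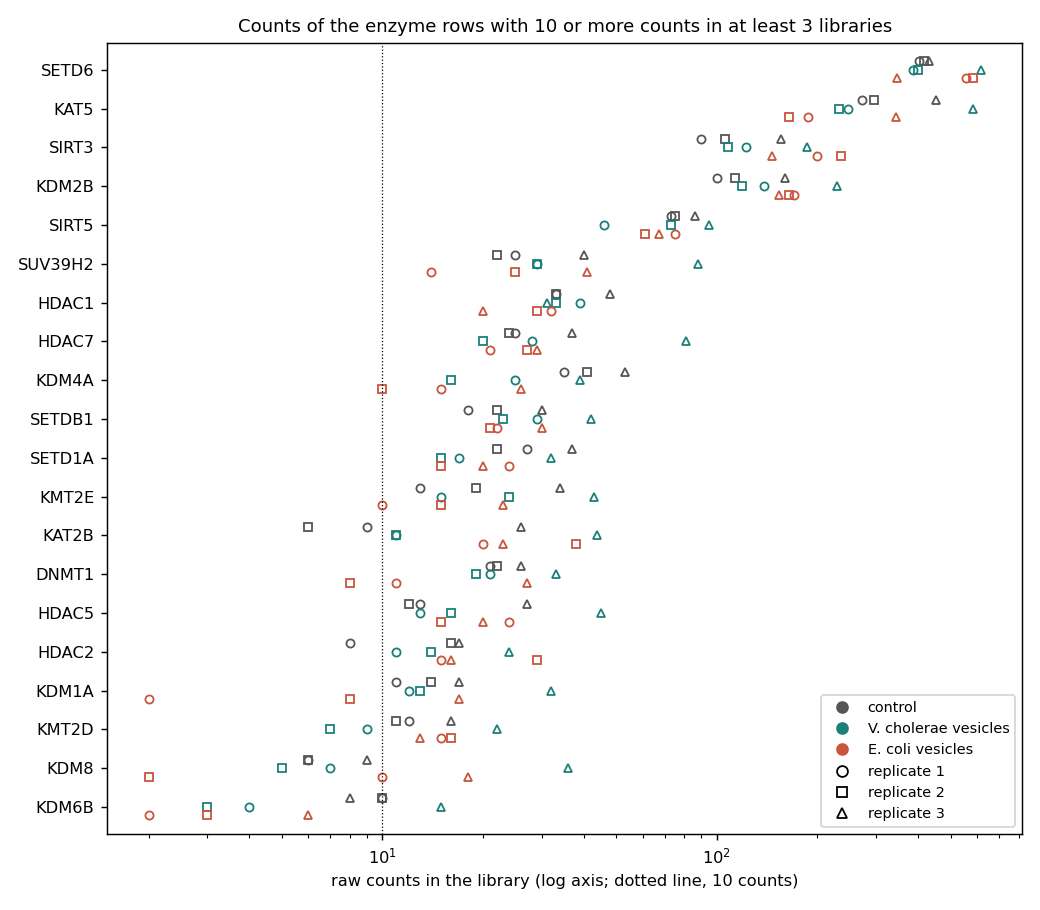
Raw counts (log axis) of the 20 enzyme rows with 10 or more counts in at least 3 libraries, 1 symbol per library, coloured by group and shaped by replicate number, with a dotted line at 10 counts. SETD6 and KAT5 stand above 100 counts in every library, while most rows below SIRT5 lie between 10 and 100.

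The DNA methyltransferases and TET enzymes were represented by DNMT1 alone. DNMT1, which copies methylation onto newly made DNA, passed the count threshold, while the 6 rows of DNMT3A, DNMT3B, DNMT3L, TET1, TET2 and TET3 had between 1 and 55 counts over the 9 libraries. The DNMT1 row had 63.5, 60.3 and 51.8 CPM (counts scaled to the library total with TMM factors) in the control libraries, 61.1, 55.4 and 42.7 with V. cholerae vesicles, and 31.8, 23.1 and 59.9 with E. coli vesicles. The first 2 E. coli vesicle libraries were below every other library and the third was within the control range, so the groups overlapped. The mean was 58.5 ± 6.06 CPM in controls, 53.1 ± 9.45 with V. cholerae vesicles and 38.3 ± 19.2 with E. coli vesicles (SD, n = 3 each). In the edgeR quasi-likelihood fit the log2 fold change against control was -0.16 ± 0.36 (SE, adjusted p = 0.9995) with V. cholerae vesicles and -0.57 ± 0.38 (adjusted p = 0.624) with E. coli vesicles. None of its exons overlaps an exon of a gene on the other strand in the annotation. Without E. coli vesicle replicate 3, and with the replicate number as a block, the E. coli vesicle value was -1.20 with an edgeR adjusted p of 0.0162, in a fit that called 22.4% of all rows tested.

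Among the histone deacetylases and sirtuins, 6 of 18 rows were tested and none passed the test in any comparison with all 9 libraries. The largest difference was in SIRT3, a mitochondrial deacetylase. The SIRT3 row had 272, 291 and 311 CPM in the control libraries, 355, 315 and 240 with V. cholerae vesicles, and 578, 678 and 324 with E. coli vesicles. All 3 E. coli vesicle libraries lay above all 3 controls, replicate 3 by the least, and the V. cholerae vesicle libraries lay on both sides of the control range. The log2 fold change with E. coli vesicles was 0.85 ± 0.28 (edgeR adjusted p = 0.256, and 0.0583 with the replicate block), and that with V. cholerae vesicles 0.05 ± 0.28. Between the vesicles, V. cholerae against E. coli, it was -0.80 ± 0.28 (edgeR adjusted p = 0.377). Without E. coli vesicle replicate 3 the SIRT3 row passed the test in both comparisons, with 1.11 against control (edgeR adjusted p = 0.00800) and -1.06 between vesicles (edgeR adjusted p = 0.0138), where 6.63% and 5.46% of all rows tested also passed. With the replicate block it passed against control without control replicate 3 as well, with 1.08 (edgeR adjusted p = 0.0199), where 2.2% of all rows passed. Its overlap with PSMD13, whose own row had 11 counts over the 9 libraries against 1349 of the SIRT3 row, lies where both genes begin, and the SIRT3 row was among the rows far from the other gene's 3′ end.

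The other deacetylase rows had libraries that overlapped between all groups. HDAC2, a class I nuclear deacetylase of the corepressor complexes, had 24.2, 43.9 and 33.9 CPM in the control libraries, 32.0, 40.8 and 31.0 with V. cholerae vesicles and 43.3, 83.7 and 35.5 with E. coli vesicles. The single high value was in E. coli vesicle replicate 2, and the log2 fold change with E. coli vesicles was 0.65 ± 0.40 (edgeR adjusted p = 0.585). HDAC1, its close relative, had 90.5 to 99.7 CPM in controls, 40.1 to 114 with V. cholerae vesicles and 44.4 to 92.4 with E. coli vesicles, and in both vesicle groups the lowest library was replicate 3. SIRT5, a mitochondrial sirtuin that removes acidic acyl groups, had 221, 206 and 171 CPM in controls, 133.9, 212.8 and 122.8 with V. cholerae vesicles and 217, 176 and 149 with E. coli vesicles, and its log2 fold changes were -0.36 ± 0.28 and -0.14 ± 0.28. HDAC5 and HDAC7, class II deacetylases, had means of 42.0 to 52.3 and of 67.6 to 81.5 CPM over the 3 groups. Their log2 fold changes lay between -0.09 and 0.29.

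Of the lysine acetyltransferases, 2 of 7 rows were tested. With all 9 libraries both differed from control with E. coli vesicles only at an unadjusted p. KAT5, the catalytic subunit of the NuA4 complex, had 819, 812 and 900 CPM in the control libraries, 716, 676 and 756 with V. cholerae vesicles and 543, 473 and 763 with E. coli vesicles. No vesicle library reached the lowest control library. The log2 fold changes were -0.24 ± 0.23 with V. cholerae vesicles (edgeR adjusted p = 0.9995) and -0.51 ± 0.23 with E. coli vesicles (edgeR adjusted p = 0.424, and 0.0683 with the replicate block). Without E. coli vesicle replicate 3 the second value was -0.73 and passed the test (edgeR adjusted p = 0.0413), where 6.63% of all rows tested did. KAT2B, the acetyltransferase PCAF, had 27.2, 16.5 and 51.8 CPM in controls, 32.0, 32.1 and 56.9 with V. cholerae vesicles and 57.8, 110 and 51.0 with E. coli vesicles. Replicate 3 was the highest library in the first 2 groups and the lowest in the third. Its log2 fold change with E. coli vesicles, 1.13 ± 0.44, was the highest of the 19 rows but did not pass the test (edgeR adjusted p = 0.343, and 0.148 with the replicate block). Without E. coli vesicle replicate 3 and with the block it was 1.79 (edgeR adjusted p = 4.4e-04), in a fit that called 22.4% of all rows tested. The other 5 KAT rows had between 8 and 21 counts over the 9 libraries.

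**Figure D2:**
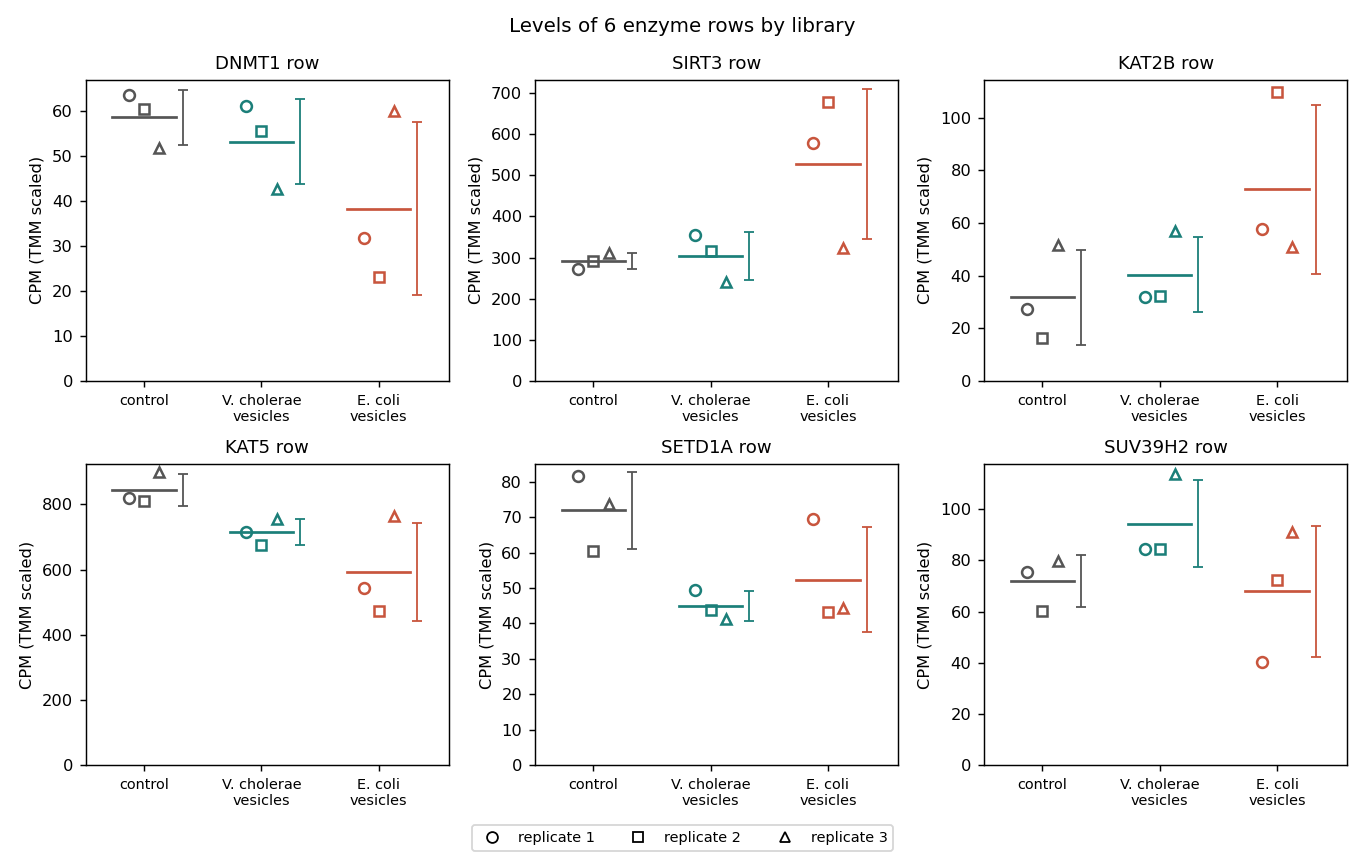
CPM of 6 enzyme rows (DNMT1, SIRT3, KAT2B, KAT5, SETD1A, SUV39H2) in each library, by group, with the group mean as a horizontal line and 1 SD as the bar beside it. In DNMT1, SIRT3 and KAT5 the E. coli vesicle replicates 1 and 2 lie away from the controls and replicate 3 lies near them. In KAT2B the E. coli vesicle replicates 1 and 2 lie above all controls, replicate 1 by little, and replicate 3 lies just below the highest control.

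The lysine demethylases held the row with the lowest fold change in both vesicle groups, KDM4A. KDM4A, also called JMJD2A, removes methyl groups from H3K9 and H3K36. Its row had 35, 41 and 53 raw counts in the control libraries, 25, 16 and 39 with V. cholerae vesicles, and 15, 10 and 26 with E. coli vesicles. Scaled to CPM these were 106, 112 and 106, then 72.8, 46.7 and 50.4, then 43.3, 28.9 and 57.7. All 6 vesicle libraries were below all 3 controls, and the 2 vesicle groups overlapped each other. The means were 108 ± 3.92 CPM in controls, 56.6 ± 14.1 with V. cholerae vesicles and 43.3 ± 14.4 with E. coli vesicles (SD, n = 3 each). Both comparisons use the same control libraries.

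In the fit without a block the KDM4A row did not pass the test. The log2 fold change was -0.94 ± 0.32 with V. cholerae vesicles (edgeR unadjusted p = 0.00911, adjusted p = 0.9995) and -1.29 ± 0.33 with E. coli vesicles (unadjusted p = 0.00113, adjusted p = 0.156). With the replicate number as a block, the KDM4A row fell with E. coli vesicles, its log2 fold change being -1.30 ± 0.28 (edgeR adjusted p = 0.0238), where 2.28% of all rows tested passed. With V. cholerae vesicles the blocked value was -0.97 ± 0.27 (edgeR adjusted p = 0.218). Between the 2 kinds of vesicle the log2 difference, V. cholerae against E. coli, was 0.35 ± 0.34 (edgeR adjusted p = 0.842), so a difference between them was not detectable with these libraries. The blocked call with E. coli vesicles depended on single libraries. Without control replicates 1, 2 or 3 its adjusted p was 0.166, 0.299 and 0.0576, and without E. coli vesicle replicates 1 or 2 it was 0.246 and 0.0984 by edgeR. It passed without E. coli vesicle replicate 3 (edgeR adjusted p = 3.9e-04), where 22.4% of all rows tested passed. In that fit the V. cholerae vesicle value of -0.96 passed as well (edgeR adjusted p = 0.0236), beside 2.07% of all rows. Without the block and without that library the E. coli vesicle value of -1.57 passed (edgeR adjusted p = 0.0182), where 6.63% of all rows did. In every one of the alternatives run the sign was negative, from -1.18 to -0.78 with V. cholerae vesicles and from -1.63 to -1.08 with E. coli vesicles.

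The row on the other strand of this locus was read beside it. KDM4A-AS1 had 236 ± 29.04 CPM in controls, 321 ± 35.0 with V. cholerae vesicles and 223 ± 30.8 with E. coli vesicles (SD, n = 3 each). Its log2 fold changes were 0.45 ± 0.24 and -0.08 ± 0.24 (edgeR adjusted p = 0.9995 and 0.957). The number of KDM4A-AS1 counts per KDM4A count was 2.54, 1.93 and 2.09 in the control libraries, 4.96, 6.38 and 6.03 with V. cholerae vesicles and 4.33, 8.10 and 4.27 with E. coli vesicles. All 6 vesicle libraries had a higher ratio than all 3 controls. This ratio was examined after the values of both rows had been seen, and it is given without a test. Both rows were tested in 6 row pairs of this kind. Only the KDM4A pair had ratios apart from control with V. cholerae vesicles, and it was 1 of 3 with E. coli vesicles. The same count over all pairs of opposite rows was not made, so how common such a separation is cannot be said here. The ratio also carries the lower values of the KDM4A row, by which it is divided. The overlap lies 3852 bases from the 3′ end of KDM4A-AS1. The measure of where reads fell took only protein-coding genes on the other strand, so the KDM4A row was not part of it. On that measure the V. cholerae vesicle libraries had 30.7% to 31.1% and the controls 30.5% to 31.9%. E. coli vesicle replicates 1, 2 and 3 had 24.1%, 21.9% and 31.2%. How the KDM4A values relate to this measure was not tested.

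**Figure D3:**
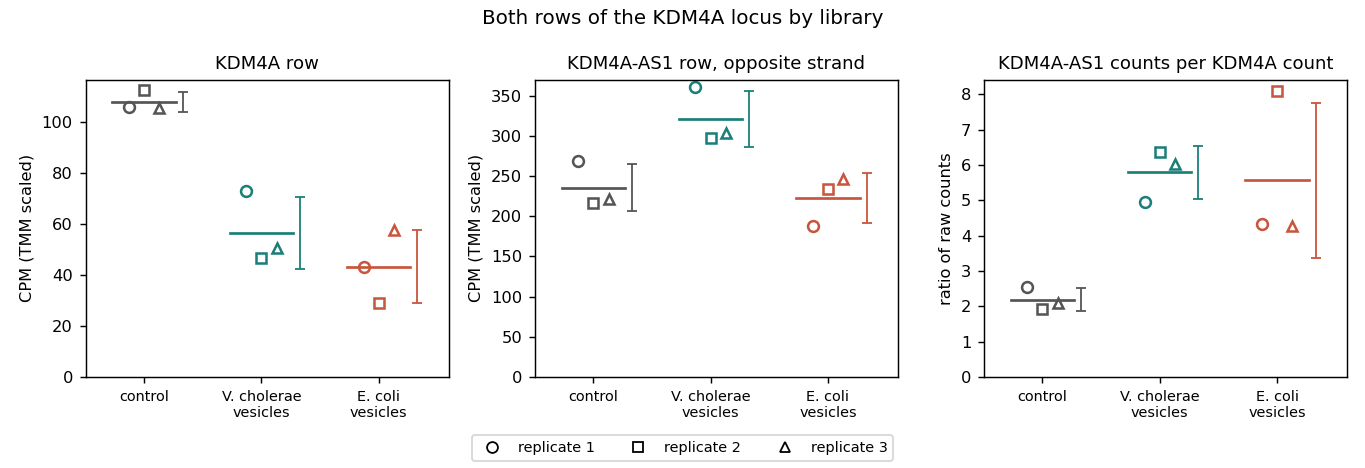
The KDM4A row (left, CPM), the KDM4A-AS1 row on the other strand (middle, CPM) and the ratio of their raw counts (right) in each library, by group, with the group mean as a horizontal line and 1 SD as the bar. All 6 vesicle libraries lie below the controls in the left panel and above them in the right panel.

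The other demethylase rows did not pass the test in any comparison with all 9 libraries. KDM1A, which demethylates H3K4 within the CoREST complex, had 33.2, 38.4 and 33.9 CPM in controls, 34.9, 37.9 and 41.4 with V. cholerae vesicles and 5.78, 23.1 and 37.7 with E. coli vesicles. The lowest of these stands on 2 counts. Its log2 fold change with E. coli vesicles was -0.61 ± 0.47 (edgeR adjusted p = 0.692), and V. cholerae against E. coli vesicles it was 0.73 ± 0.46, the highest of the 19 rows in that comparison (edgeR adjusted p = 0.669). These 2 values were -0.19 and 0.31 without E. coli vesicle replicate 1 and -1.27 and 1.396 without E. coli vesicle replicate 3. With the block and without replicate 3 the difference between the vesicles was 1.38 and passed (edgeR adjusted p = 0.0465), where 20.5% of all rows tested did. KDM8, a JmjC-domain protein, had 18.1, 16.5 and 17.9 CPM in controls, 20.4, 14.6 and 46.5 with V. cholerae vesicles and 28.9, 5.77 and 39.9 with E. coli vesicles, with between 2 and 36 counts per library. Its log2 fold change with V. cholerae vesicles, 0.74 ± 0.57, was the highest of the 19 and rested on replicate 3 (-0.0032 without that library). KDM2B, a demethylase of H3K36 that brings a Polycomb complex to CpG islands, had 302, 310 and 319 CPM in controls, 402, 347 and 296 with V. cholerae vesicles and 491, 476 and 339 with E. coli vesicles. All 3 E. coli vesicle libraries were above the controls. Its difference of 0.49 ± 0.24 did not pass (edgeR adjusted p = 0.465). With the block and without E. coli vesicle replicate 3 it was 0.58 and passed (edgeR adjusted p = 0.00679), where 22.4% of all rows did. In that fit its difference between the vesicles, -0.44, passed as well (edgeR adjusted p = 0.0380), beside 20.5% of all rows.

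The methyltransferases of H3K4 and the SETD rows gave 4 tested rows of 15, none of which passed in any comparison with all 9 libraries. SETD1A, a catalytic subunit of COMPASS, had 81.6, 60.3 and 73.7 CPM in controls, 49.5, 43.7 and 41.4 with V. cholerae vesicles and 69.3, 43.3 and 44.4 with E. coli vesicles. The V. cholerae vesicle libraries lay below all controls, and 1 of the E. coli vesicle libraries lay among them. The log2 fold changes were -0.69 ± 0.33 (edgeR adjusted p = 0.9995, and 0.439 with the replicate block) and -0.46 ± 0.33 (edgeR adjusted p = 0.655). KMT2D, another H3K4 methyltransferase, had 36.3, 30.2 and 31.9 CPM in controls, 26.2, 20.4 and 28.4 with V. cholerae vesicles and 43.3, 46.2 and 28.8 with E. coli vesicles, from 7 to 22 counts per library. Every V. cholerae vesicle library was below every control and every E. coli vesicle library, although the ranges of the vesicle groups nearly met, at 28.4 and 28.8 CPM. The KMT2D differences, -0.35 ± 0.38 against control and -0.61 ± 0.37 against E. coli vesicles, did not pass (edgeR adjusted p = 0.9995 and 0.669). KMT2E had means of 53.0, 56.4 and 41.1 CPM in the control, V. cholerae vesicle and E. coli vesicle groups, with overlapping libraries. Its log2 fold change between the vesicles was 0.44 ± 0.36 (edgeR adjusted p = 0.805).

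SETD6, a methyltransferase with non-histone targets such as RELA, had the most counts of all the enzyme rows. It had between 346 and 616 counts per library, and its means were 1074 ± 189 CPM in controls, 1030 ± 203 with V. cholerae vesicles and 1353 ± 508 with E. coli vesicles (SD, n = 3 each). The lowest library in each group was replicate 3. With all libraries and no block the difference with E. coli vesicles was 0.33 ± 0.28 (edgeR adjusted p = 0.733). With the block and without E. coli vesicle replicate 3 it was 0.47 (edgeR adjusted p = 0.00143), in a fit that called 22.4% of all rows.

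The methyltransferases of H3K9, H3K27 and H4K20 were represented by 2 of 10 names. SUV39H2, which trimethylates H3K9, had 75.6, 60.3 and 79.6 CPM in controls, 84.4, 84.6 and 114 with V. cholerae vesicles and 40.4, 72.1 and 91.0 with E. coli vesicles. The V. cholerae vesicle libraries were above all controls, and the E. coli vesicle libraries spanned them. The log2 fold changes were 0.40 ± 0.32 and -0.07 ± 0.33 against control and 0.48 ± 0.33 between the vesicles (edgeR adjusted p = 0.9995, 0.974 and 0.699). SETDB1, another H3K9 methyltransferase, had 54.4 to 60.3 CPM in controls and 60.6 to 66.6 with E. coli vesicles, so these groups did not overlap, although their ranges nearly met, and the log2 difference was 0.13 ± 0.31. EZH2, the catalytic subunit of the Polycomb repressive complex, had too few counts to be tested. None of the 8 PRMT rows was tested either. Of these, PRMT6 had the most counts, 54 over the 9 libraries. CARM1, an arginine methyltransferase whose name the rule does not take, was tested and is counted below with the partners.

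The enzyme rows were also counted over the 19 rows tested. With V. cholerae vesicles 0 of 19 passed the edgeR test at an adjusted p under 0.05, where 0.0544% of all 3679 rows tested did. DESeq2 and limma-voom also called 0 of the 19, and 4 and 0 of all rows. With the replicate block 0 passed (0.353% of all rows), with replicates 1 and 2 only 0 (1.88%), and without E. coli vesicle replicate 3 again 0 (0.136%), while the block without that library called 1, KDM4A (2.07%). At an unadjusted p under 0.05 there was 1, KDM4A, against 2.72% of all rows. SUV39H2 was the 1 row whose vesicle libraries lay all above the controls (4.92% of all rows), and KDM4A, KAT5, KMT2D and SETD1A were the 4 whose libraries lay all below (3.64% of all rows). The fold changes were above 0 in 11 of 19 rows (50.8% of all rows). Their median was 0.05 on the log2 scale, beside 0.01 for all rows, with a range from -0.94 to 0.74.

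With E. coli vesicles 0 of 19 passed without the block, where 0.19% of all rows did, and 1 (KDM4A) passed with it, where 2.28% did. DESeq2 and limma-voom called 0 of the 19, and 35 and 5 of all 3679 rows. DESeq2 gave no adjusted p to some enzyme rows, among them DNMT1, HDAC2, KAT2B, KDM1A, KDM8, KMT2E and SETD1A. It could therefore not call these. KDM4A, KAT5, SIRT3 and KAT2B had an unadjusted p under 0.05, 4 of 19 beside 11.3% of all rows. SETDB1, SIRT3 and KDM2B lay all above the controls (5.82% of all rows), and KDM4A and KAT5 all below (8.7%). The median log2 fold change was -0.07, beside -0.01 for all rows, with a range from -1.29 to 1.13, and 9 of 19 rows were above 0 (49.3% of all rows). With replicates 1 and 2 only, 7 enzyme rows passed, where 21.9% of all rows did. KDM4A, KAT5 and DNMT1 were lower and SIRT3, KDM2B, SETD6 and KAT2B higher. These are the same libraries that stood apart in where reads fell, and the part of that measure in these calls was not tested. In them 9.333% and 9.385% of the enzyme counts came from rows without an exon on the other strand, against 11.2% to 12.95% in the other 7 libraries.

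Between V. cholerae and E. coli vesicles 0 of 19 passed the edgeR test, where 0.0% of all rows did, and 0 with the block, where 0.0544% did. DESeq2 and limma-voom called 0 as well, and 5 and 0 of all rows. With replicates 1 and 2 only, 5 passed (KAT5, SIRT3, SETD6, DNMT1 and KAT2B), where 20.8% of all rows did. With the block and without E. coli vesicle replicate 3, 7 passed, where 20.5% of all rows did: KDM1A, KAT5 and DNMT1 were higher and SIRT3, KDM2B, SETD6 and KAT2B lower with V. cholerae vesicles. SIRT3 alone had an unadjusted p under 0.05, where 9.05% of all rows had. KMT2D was the 1 row with all V. cholerae vesicle libraries below all E. coli vesicle libraries (4.1% of all rows), and 0 rows lay all above (7.8%). The median log2 difference was 0.08, beside 0.02 for all rows, with a range from -0.80 to 0.73. The sign of this median turned when any of 4 vesicle libraries was left out.

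**Figure D4:**
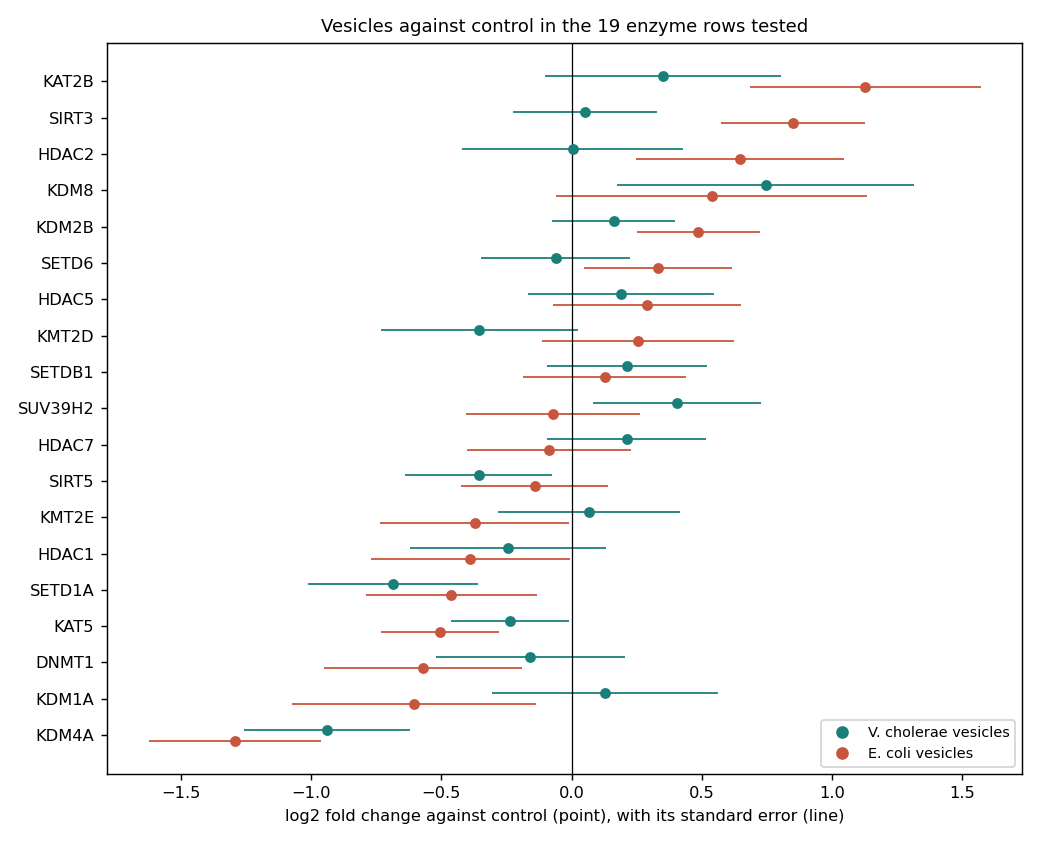
Log2 fold change against control (points) with 1 standard error (lines) of the 19 enzyme rows tested, for V. cholerae and E. coli vesicles, ordered by the E. coli vesicle value. KDM4A is lowest for both, at -0.94 and -1.29, and KAT2B is highest for E. coli vesicles at 1.13.

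The partners of these enzymes did not pass the test either. The lists hold 112 names present in the table, of which 27 were tested, and 0 were called in each comparison with and without the block. Of all rows, 0.0544% were called with V. cholerae vesicles, 0.19% with E. coli vesicles and 0.0% between them, and with the block 0.353%, 2.28% and 0.0544%. At an unadjusted p under 0.05 there were 0 of 27 with V. cholerae vesicles (2.72% of all rows). With E. coli vesicles there was 1 (11.3% of all rows), CARM1, an arginine methyltransferase. Between the vesicles there was 1 (9.05% of all rows), BRD9, an acetyl-lysine reader. Of 25 enzymes of the same classes whose names the rule does not take, 8 were tested. Their median log2 fold change was 0.16 with V. cholerae and 0.42 with E. coli vesicles. For all rows tested the medians were 0.01 and -0.01, and each list median here rests on few rows. Of 10 COMPASS partners, 4 were tested (RBBP5, MEN1, WDR82 and PAXIP1), with medians of 0.16 and -0.50. The 6 tested of 22 members of acetyltransferase complexes had medians of -0.02 and -0.03. The 4 tested of 17 readers of methyl and acetyl marks had 0.10 and -0.38. From the 8 Polycomb partners RBBP4 was tested, and from the 12 partners and readers of DNA methylation UHRF1, which brings DNMT1 to newly made DNA. The UHRF1 row is in the table with 12 to 44 counts per library.

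The rows opposite the enzymes differed in how their counts compared with those of the enzyme rows. Genes on the other strand without a matched row in the table could not be compared. Among these, AC004466.1 shares 963 exon bases with HDAC7, beside 32 of SLC48A1, and AL441883.1 shares 1045 with SIRT5. KAT5 lies tail to tail with RNASEH2C, a subunit of ribonuclease H2, and had 2778 counts beside its 7248. SETD6 had 4141 counts beside 1887 of CNOT1, the scaffold of the deadenylase complex, and KDM2B had 1347 beside 183 of RNF34. SUV39H2 had 313 beside 1056 of DCLRE1C, the nuclease Artemis. SETDB1 had 237 beside 24 of CERS2, a ceramide synthase, and HDAC7 had 292 beside 163 of SLC48A1. KMT2E had 196 beside 23 of KMT2E-AS1 and 16 of SRPK2, and KMT2B 71 beside 10 of IGFLR1. Enzyme rows with fewer counts had such pairs too. PRMT7 had 3 beside 795 of SMPD3, SIRT2 3 beside 104 of NFKBIB, and KDM5A 14 beside 92 of CCDC77. KAT7 had 8 beside 9 of FAM117A, and KMT2C 45 beside 0 of FABP5P3. Of the opposite rows, 9 were tested, counting also those of enzymes with too few counts, and 0 were called in any comparison. With E. coli vesicles SLC48A1 had a log2 fold change of 1.09 ± 0.39, RNF34 0.72 ± 0.34 and CCDC77 -1.28 ± 0.58. Their edgeR adjusted p were 0.282, 0.438 and 0.425. All had an unadjusted p under 0.05, as 11.3% of all rows did. CCDC77 stands on 2 and 1 counts in E. coli vesicle replicates 1 and 2. Between the vesicles SLC48A1, CCDC77 and KDM4A-AS1 had such a p (9.05% of all rows). RNASEH2C, opposite the KAT5 row, had log2 fold changes of 0.11 ± 0.26 with V. cholerae and 0.10 ± 0.26 with E. coli vesicles, beside -0.24 and -0.51 of KAT5. CNOT1 had -0.09 ± 0.22 and 0.15 ± 0.22, beside -0.06 and 0.33 of SETD6.

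**Figure D5:**
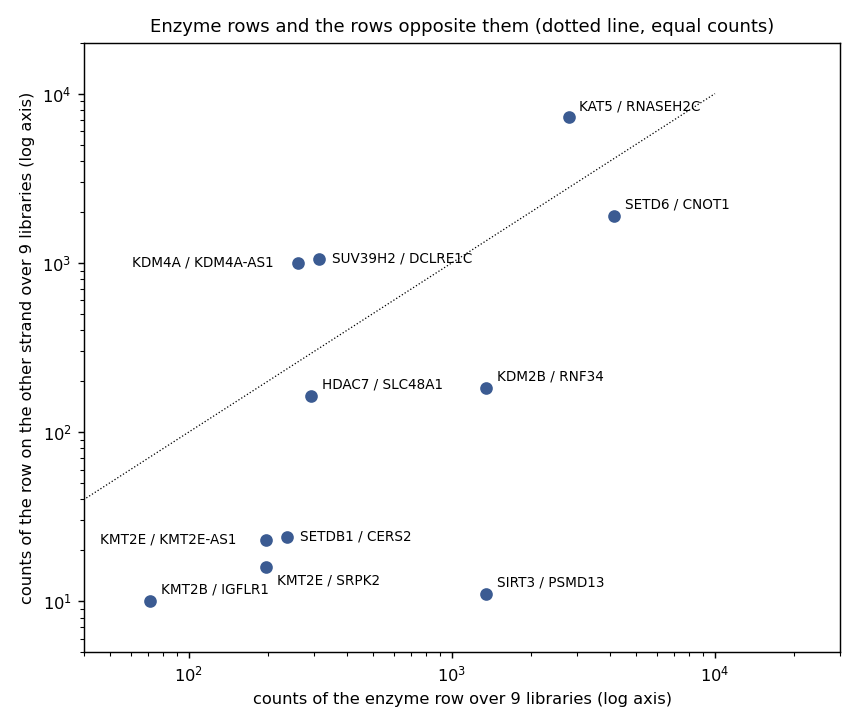
Counts over the 9 libraries of enzyme rows (horizontal, log axis) and of rows of genes on the other strand that share exon bases with them (vertical, log axis), 1 point per pair of rows, with a dotted line at equal counts. Pairs whose enzyme row had few counts are not drawn. Of the pairs drawn, KAT5, SUV39H2 and KDM4A lie above the line, and SIRT3 lies farthest below it, with 1349 counts beside 11 of PSMD13.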

How the data were processed

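Poly(A) RNA of 9 libraries was sequenced as single reads of 50 bases with a stranded kit, per the labels' protocols. The authors deposited raw counts per gene row. The submitters' processing notes name the build hg19, HTSeq 0.6.1, Cufflinks 2.2.1, Bowtie2 2.2.3, TopHat2 2.0.12, FastQC and SAMtools 0.1.19. Which strand was counted is not stated there.

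The deposited counts were tested with edgeR 4.0.16 (R 4.3.3): TMM scaling, rows kept by a minimum count of 10 and a minimum total of 15 (3679 of 26008 rows, 94.4% of counts), 1 robust quasi-likelihood fit over all 9 libraries by group, and Benjamini-Hochberg adjustment over all rows tested, with calls at an adjusted p under 0.05. The procedure was tested on simulated data with known changes. Those data had no shift between replicate numbers, so they do not cover the differences between replicates seen here. Library totals of 363557 to 733412 counts limit precision. Most enzyme rows had too few counts to be tested, and the reason for this was not tested.

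Members and gene lists were chosen with earlier results of these data known. Fold changes were printed for DNMT1, KDM4A and, in each comparison, the 3 highest and 3 lowest of the rows tested, and for any row called. KAT5, KDM2B, SETDB1, KMT2D, SETD6, HDAC1, HDAC5, HDAC7, KDM6B and the opposite rows were described after their values were seen. The list of deacetylase complexes is not reported on its own here. Names were matched to GENCODE 29 (all 84 enzyme names); since the authors used hg19, only overlaps between genes were taken from it.

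Replicate numbers come from the sample titles. Same-numbered libraries of different groups deviated together, with correlations from 0.115 to 0.677, all above the 0.1 taken as pairing, and the values for replicates 1 and 2 (0.115 to 0.328) were close to those between replicate 1 and replicate 2 (0.133 to 0.350). Replicate 3 correlated with replicate 3 of the other groups at 0.45 to 0.677, and with their replicates 1 and 2 at -0.497 to -0.183. The replicate block was therefore run as an alternative and is printed where it changes a call. Other alternatives were RLE scaling, no filter, DESeq2 1.42.0, limma 3.58.1 voom, replicates 1 and 2 only, and leaving out each library, the last also with the block, which was added after the data had been seen. Fits that left out libraries kept the same rows.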

Additional observations from a re-analysis of the deposited data

How the results depend on the processing

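The number of rows called over the whole table moved with the processing. With V. cholerae vesicles the 2 called rows became 5 without the filter, 4 with DESeq2, 0 with limma-voom, 13 with the replicate block, 69 with replicates 1 and 2 only, 0 to 5 when 1 library was left out, and 1 to 76 when this was done with the block (26 without E. coli vesicle replicate 2). With E. coli vesicles the 7 became 40, 35 (DESeq2), 84 with the block, 805 with replicates 1 and 2 only, and 3 to 244 and, with the block, 3 to 824 when 1 library was left out (81, 31, 47, 104 and 38 without control 3, V. cholerae vesicle 1, 2 and 3 and E. coli vesicle 2). Between the vesicles 0 became 31, 5, 2 with the block, 764 with replicates 1 and 2 only, and up to 201 and, with the block, up to 753 (38 without V. cholerae vesicle replicate 3). Of the enzyme rows, the 0 called became 1 with V. cholerae vesicles with the block and without E. coli vesicle replicate 3. With E. coli vesicles the 0 became 1 with the replicate block, 7 with replicates 1 and 2 only, up to 3 when 1 library was left out and up to 7 with the block. Between the vesicles it became 5 with replicates 1 and 2 only, and up to 1 and up to 7. The highest values of these ranges were without E. coli vesicle replicate 3. A minimum of 10 counts in all 9 columns kept 13 enzyme rows in place of 20. The cause of these changes was not tested.

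These named values changed sign, with the lowest and highest of the values without 1 library in brackets. With V. cholerae vesicles, DNMT1 was 0.0024 (-0.28 to 0.0024), KAT2B -0.044 (-0.044 to 0.95) and KDM8 -0.0032 (-0.0032 to 1.01) without V. cholerae vesicle replicate 3. HDAC2 was -0.0087 with RLE scaling, -0.0022 with DESeq2, and -0.17, -0.0046 and -0.12 without control replicate 1, control replicate 3 and V. cholerae vesicle replicate 2 (-0.17 to 0.21). KMT2E was -0.097 and -0.093 without control replicate 1 and V. cholerae vesicle replicate 2 (-0.097 to 0.30), and SIRT3 -0.090 without V. cholerae vesicle replicate 1 (-0.090 to 0.20). With E. coli vesicles, KDM8 was -0.016 without E. coli vesicle replicate 3 (-0.016 to 0.98), and SUV39H2 0.016 and 0.18 without control replicate 3 and E. coli vesicle replicate 1 (-0.36 to 0.18). Between the vesicles, KDM8 was -0.54 and -0.23 without V. cholerae vesicle replicate 3 and E. coli vesicle replicate 2 (-0.54 to 0.77), and SETD1A 0.022 without E. coli vesicle replicate 1 (-0.34 to 0.022). The median over the 19 enzyme rows also changed sign. With V. cholerae vesicles it was -0.093 without V. cholerae vesicle replicate 2, and with E. coli vesicles 0.044 without E. coli vesicle replicate 1. Between the vesicles it was -0.089, -0.053, -0.19 and -0.15 without V. cholerae vesicle replicates 1 and 3 and E. coli vesicle replicates 2 and 3. The sign of KDM4A was the same in every alternative run.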
